A study of Rattus norvegicus with 183 samples.

Results

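Potassium channel genes were examined in RNA from the posterior ventral tegmental area of outbred heterogeneous stock rats. The gene table holds 93 names made of Kcn, letters and digits, and 6 of them (Kcnj3, Kcnj5, Kcnj6, Kcnj8, Kcnj9 and Kcnj13) were left out. Of the 87 genes that stayed, 72 had a mean level of at least 1 on the log2(CPM + 1) scale over all libraries, where CPM is the estimated count per 1e6 estimated counts of a library, and these 72 of the 15536 genes at or above that level are described. Kcnk5 (1.09) and Kcng3 (1.13) lay just inside the limit, and Kcns1 (0.88) and Kcnj15 (0.85) just outside it. Kcnh3 passed only through the libraries with little Th and had a mean of 0.97 without them. The other 13 candidates below the limit were Kcnh8, Kcnn4, Kcnj1, Kcnk15, Kcnv2, Kcna7, Kcne3, Kcnk7, Kcnk18, Kcnmb3, Kcne1, Kcnu1 and Kcna10.

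Potassium channels let potassium leave the cell, or in the inward rectifiers mainly hold the resting potential, and so set how fast and how regularly a neuron fires. Voltage-gated Kv channels are tetramers of alpha subunits from the Kcna, Kcnb, Kcnc, Kcnd, Kcnq and Kcnh genes. The Kcnf, Kcng, Kcns and Kcnv products form no channel alone and modify the Kcnb channels, and Kcnab, Kcnip, Kcne and Kcnmb encode auxiliary subunits. Kcnma1, Kcnn and Kcnt genes encode channels opened by calcium or sodium, Kcnk genes two-pore leak channels and Kcnj genes inward rectifiers. In midbrain dopamine neurons the A-type current of Kcnd3 channels and the afterhyperpolarisation carried by the small-conductance Kcnn3 channel are known to slow pacemaking, and in glia Kcnj10 and Kcnj16 take up potassium.

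PolyA RNA was measured in 1 dissected sample per library. All samples have the same tissue label, and neither treatment, sex, age nor a batch is labelled; another 31 samples, marked as removed, have no column of values. Only the format of the animal's identifier divides the libraries (88 hexadecimal, 63 decimal and 1 other), and 17 libraries have a label that the submitters corrected. The totals ran from 15.2 to 57.2 M estimated counts (M is 1e6).

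In 11 libraries, 1 with a hexadecimal and 10 with a decimal identifier, Th, the tyrosine hydroxylase gene of dopamine synthesis, had 1.33 to 3.47 CPM, against 577 to 3934 CPM in all others. The others, called the Th libraries here, are 87 with a hexadecimal, 53 with a decimal and 1 with another identifier. The dopamine transporter gene Slc6a3 had at most 0.121 CPM in the 11 libraries, against 38.2 to 1491 CPM in the Th libraries. Slc17a7, which encodes the vesicular glutamate transporter of cortical neurons, was at 1833 to 2040 CPM there, against 0.164 to 1064 CPM in the Th libraries. The summed level of the 10 listed cortical neuron genes was 2799 to 3116 CPM in the 11 libraries, against 88.8 to 1331 CPM in the Th libraries, and that of the 10 myelin genes 1621 to 5489 CPM, against 19716 to 49676 CPM. The 11 libraries thus go against the markers of the labelled tissue, and none of them has a corrected label. They are described apart and enter no test. Relations were measured over all Th libraries, or over 140 in the linear fits, which leave out the library whose identifier has another format. No separate treatment groups exist, and nothing in the labels says whether libraries were made together, so a p-value measures only the spread between these libraries. In bulk tissue, fewer cells of a type and less RNA per cell cannot be told apart. Levels are not compared between genes, since transcript lengths were not used.

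The spread of the channel genes was measured among the Th libraries. The median SD of log2(CPM + 1) was 0.37 over the 72 channel genes and 0.26 over all 15536 genes, as a description. Among the widest was Kcna3, a Kv1 subunit gene of neurons and immune cells, with 0 to 12.7 CPM (median 6.24, SD 0.95). Wide spreads were also seen for the inward rectifier gene Kcnj4 (0.130 to 20 CPM, SD 0.89), Kcnh3 (0 to 26.1 CPM, SD 0.86) and Kcnmb1, the beta subunit of large-conductance calcium-activated channels in smooth muscle (0.580 to 17 CPM, SD 0.75). The narrowest were Kcnn2 (13.5 to 28.8 CPM, SD 0.17), Kcna6 (190 to 359 CPM, SD 0.18), Kcnq3 (71.7 to 144.95 CPM, SD 0.20), Kcnj11 (20.3 to 44.65 CPM, SD 0.21) and Kcnj16 (87.05 to 199.6 CPM, SD 0.21). Kcna3 was not spread evenly over the identifier formats: it was below 3 CPM in 32 of 87 hexadecimal and in 3 of 53 decimal libraries.

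**Figure D1:**
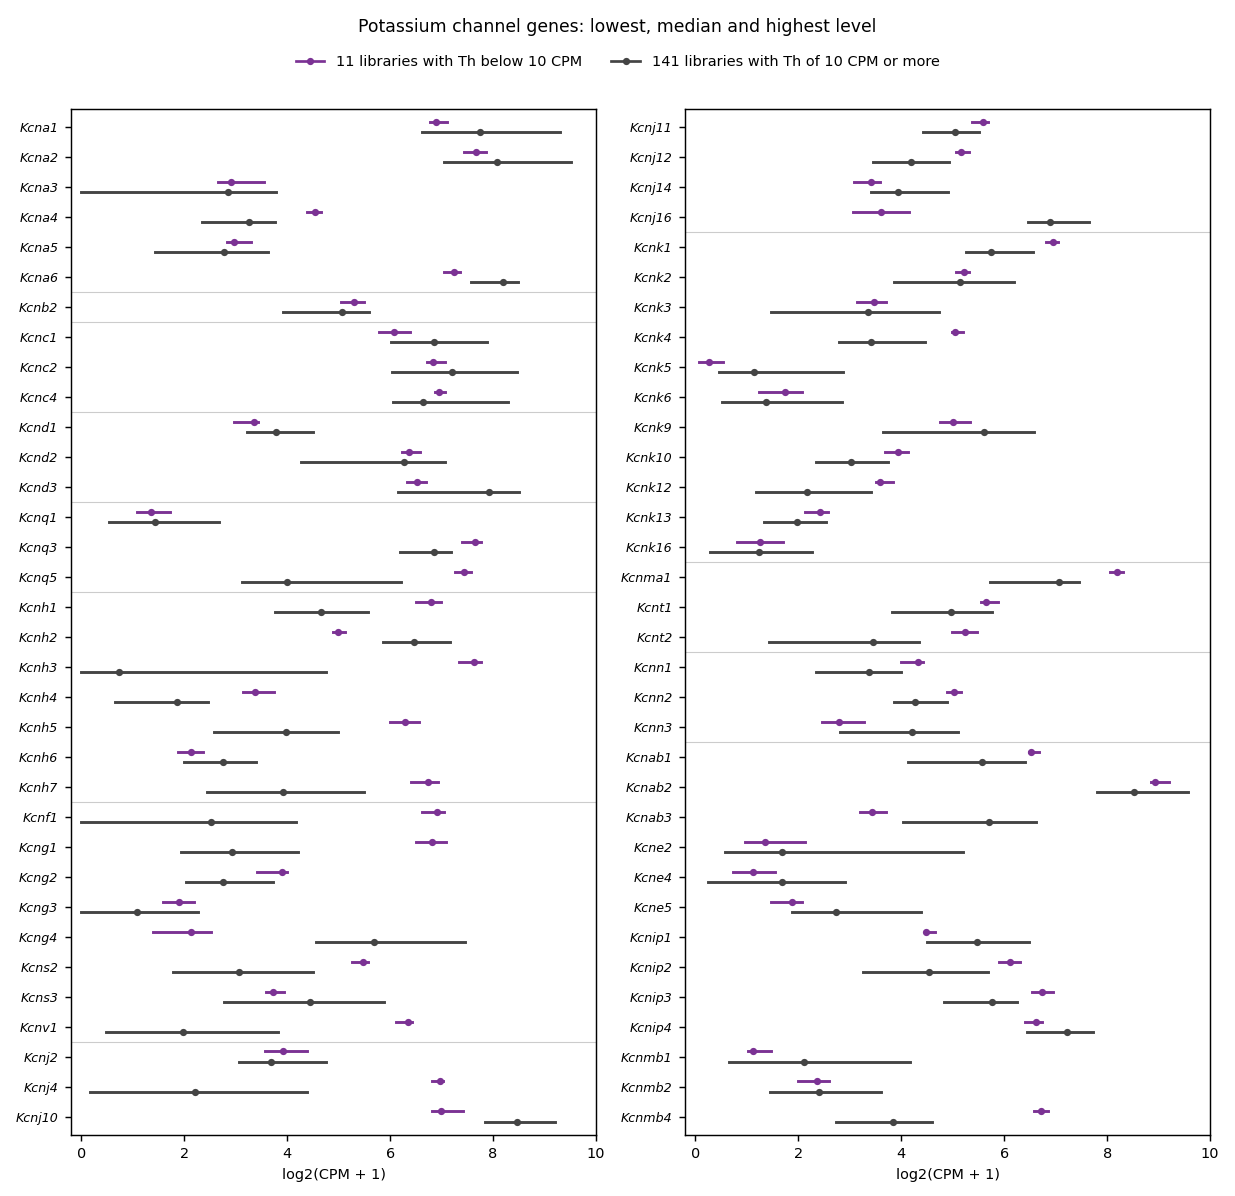
Lowest, median and highest log2(CPM + 1) of 68 of the 72 channel genes, grouped by family, in the 11 libraries with Th below 10 CPM (purple, upper line of each pair) and in the Th libraries (grey, lower line). The purple lines are short and lie right of the grey ones without overlap for Kcnh3, Kcnj4 and Kcnf1, among others, and left of them for genes such as Kcng4 and Kcnj16; levels are not comparable between genes.

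The first question was which channels follow dopamine neuron markers. A marker score is the mean z-score of a gene list, scaled to an SD of 1, and a slope is the change in log2(CPM + 1) per SD of the score in a limma fit over all 15536 genes with identifier format as a covariate. A gene rises or falls with a score when its adjusted p (Benjamini-Hochberg) is below 0.05. With the score of 10 dopamine neuron genes, 14 of 72 channel genes rose and 28 fell (19.4% and 38.9%), where 18.4% of all genes rose and 15.1% fell. The median slope was -0.04 over the 72 genes and 0.00 over all genes. All 14 and all 28 kept their sign in each identifier format alone.

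Kcnd3, the A-type Kv4 subunit gene, had 69.8 to 361.8 CPM (median 242) in the Th libraries and a slope of 0.34 (SE 0.023, limma adjusted p = 1.17e-28), a 1.27-fold higher level per SD. Kcnn3, the small-conductance calcium-activated channel gene, had 6.05 to 33.4 CPM (median 17.6) and a slope of 0.34 (SE 0.033, adjusted p = 4.19e-17). In contrast its paralogs fell: Kcnn1 had a slope of -0.10 (limma adjusted p = 0.000107) and Kcnn2 of -0.06 (adjusted p = 0.000179). Kcnt2, a sodium-activated channel gene, had 1.69 to 19.4 CPM (median 10.0) and a slope of 0.31 (SE 0.044, adjusted p = 2.47e-09), while its paralog Kcnt1 had -0.09 (adjusted p = 0.000953). Kcnb2, which encodes a delayed rectifier of the Kv2 family, and Kcng3, a silent subunit gene whose product modifies Kv2 channels, both had slopes of 0.24 (limma adjusted p = 8.9e-18 and 2.41e-08). Kcnmb4, the brain beta subunit of large-conductance calcium-activated channels, had 5.6 to 23.2 CPM (median 13.3) and a slope of 0.22 (SE 0.020, adjusted p = 7e-18). The pore subunit gene of those channels, Kcnma1, had a slope of 0.04 that did not pass (adjusted p = 0.15). Kcnip4, whose product binds Kv4 channels, had a slope of 0.17 (SE 0.018, limma adjusted p = 3.01e-14). Kcnip3, a further Kv4 partner, rose by less (0.06, adjusted p = 0.00709), and so did Kcna5 (0.14), Kcnk2 (0.11) and Kcnh4 (0.07). Kcna3 rose by 0.22 (SE 0.075, limma adjusted p = 0.0175), but its slope was -0.02 (adjusted p = 0.752) with the respiratory chain score as a covariate and -0.21 when Th alone stood for the score.

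**Figure D2:**
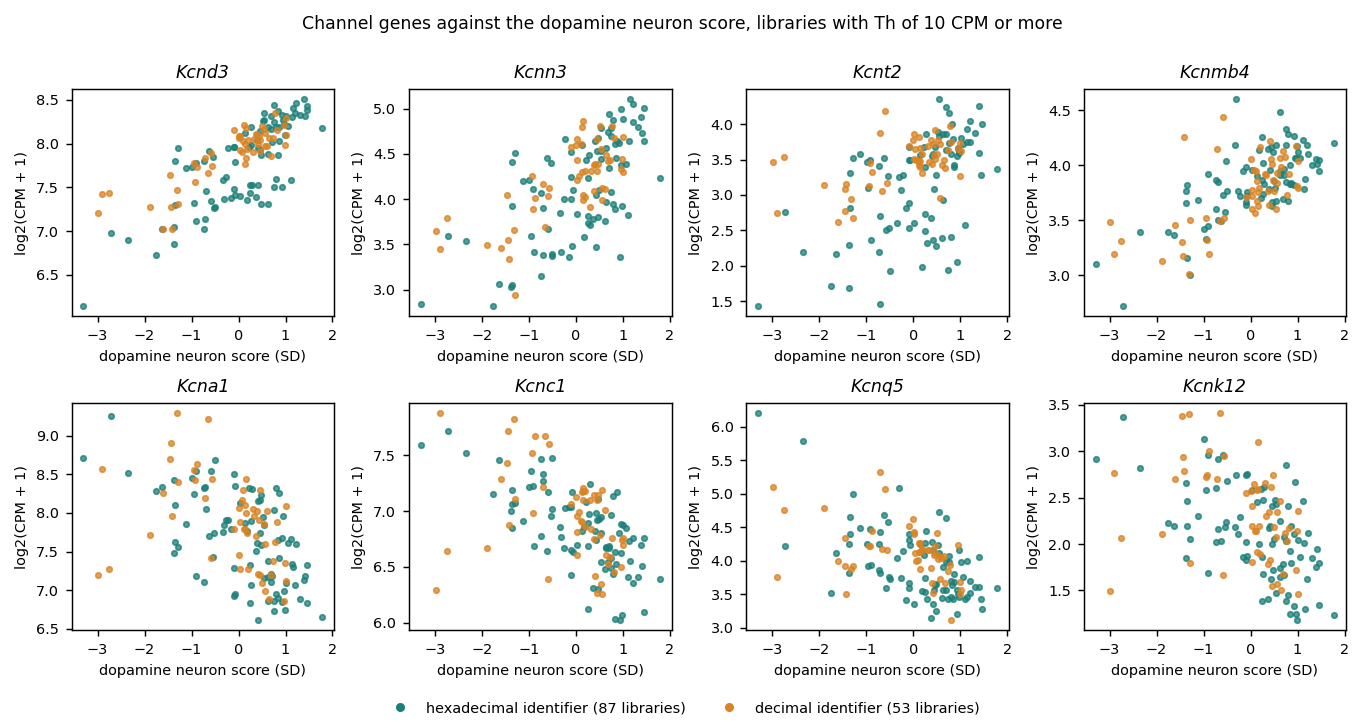
log2(CPM + 1) of 8 channel genes in each library against the dopamine neuron score, with 1 point per library (87 hexadecimal in green, 53 decimal in orange). Kcnd3, Kcnn3, Kcnt2 and Kcnmb4 rise to the right, and Kcna1, Kcnc1, Kcnq5 and Kcnk12 fall, in both colours.

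None of the 7 inward rectifier genes rose and 5 fell: Kcnj2 (-0.18, SE 0.017, limma adjusted p = 2.88e-17), Kcnj12 (-0.12), Kcnj14 (-0.10), Kcnj10 (-0.09) and Kcnj11 (-0.06), the pore subunit of ATP-sensitive channels. Of all genes 18.4% rose and 15.1% fell with this score. The 7 were not tested as a set, and the Kcnj genes left out at the start are not among them. Among the Kv3 genes of fast-firing neurons Kcnc1 fell by 0.21 (SE 0.027, limma adjusted p = 2.73e-11) and Kcnc4 by 0.13 (adjusted p = 5.75e-09). The axonal Kv1 genes Kcna1 and Kcna2 fell by 0.31 (SE 0.042, adjusted p = 4.22e-10) and 0.20 (SE 0.037, adjusted p = 2.14e-06), and their beta subunit gene Kcnab2 fell by 0.18 (limma adjusted p = 8.39e-07). Kcnq5, an M-current subunit gene with 7.68 to 72.6 CPM (median 14.9), fell by 0.26 (SE 0.035, adjusted p = 1.85e-10). The silent subunit gene Kcng4 fell by 0.26 (SE 0.051, adjusted p = 1.52e-05), the two-pore gene Kcnk12 by 0.23 (SE 0.038, adjusted p = 8.89e-08) and the auxiliary gene Kcne5 by 0.21 (SE 0.034, adjusted p = 7.06e-08). Kcnh2, the ERG channel gene that is known to be active in dopamine neurons, fell by 0.09 (limma adjusted p = 2.48e-05).

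The channel genes that follow or oppose this score were set beside markers of large, fast-firing projection neurons (Spp1, Scn4b, Syt2, Pvalb, Nefh and Cabp7), a score added after the data were seen. This score ran against the dopamine score, with Pearson r = -0.49 and Spearman rho = -0.55 over the Th libraries (permutation adjusted p = 3.5e-05 over 28 pairs of scores) and r = -0.53 without the 2 libraries farthest from the median dopamine score. Within the formats r was -0.57 (87 hexadecimal libraries) and -0.33 (53 decimal libraries, adjusted p = 0.0519). All 14 genes that rose with the dopamine score fell with this one, and 18 of the 28 that fell with the dopamine score rose. The list was chosen with the data known, and the 2 scores ran in opposite directions. These counts and the p-values for the 2 scores are therefore a description. The matching shares among all genes that moved with the dopamine score were not counted. Of the 72 genes 22 rose and 34 fell with the large projection neuron score, where 19% and 50.6% of all genes did.

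Kcng4 had a slope of 0.58 on this score (SE 0.025, limma adjusted p = 4.22e-48). Steep slopes were also found for Kcna1 with 0.54 (SE 0.019, adjusted p = 3.42e-57), Kcns3, a silent subunit gene, with 0.48 (SE 0.036, adjusted p = 3.71e-25) and Kcnk12 with 0.40 (SE 0.025, adjusted p = 8.27e-31). Kcna2 (0.38), Kcnab2 (0.36), Kcnc2 (0.29) and Kcnc1 (0.27) also rose. The lowest were Kcnj4 (-0.43), Kcna3 (-0.35) and Kcnt2 (-0.35).

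With the large projection neuron score as a covariate, the dopamine slopes separated into those that held and those that did not. Of the 14 risers 7 still passed: Kcnd3 (0.28, limma adjusted p = 2.03e-20), Kcnn3 (0.27, adjusted p = 4.17e-10), Kcng3 (0.21), Kcnmb4 (0.20, adjusted p = 3.19e-13), Kcnt2 (0.18), Kcnb2 (0.17, adjusted p = 4.16e-10) and Kcnip4 (0.13). Among those that did not pass, Kcna3, Kcna5, Kcnk2, Kcnh4 and Kcnip3 lay between -0.03 and 0.06. Of the 28 fallers 17 still passed, among them Kcnq5 (-0.35, adjusted p = 1.39e-14), Kcnab3 (-0.27, adjusted p = 1.87e-09), Kcns2 (-0.19), Kcnh5 (-0.19), Kcnj2 (-0.19, adjusted p = 1.05e-14), Kcnt1 (-0.16) and Kcnc4 (-0.15). Kcng4 (0.04, adjusted p = 0.36) changed sign and did not pass, and neither did Kcna2 (-0.02), Kcnab2 (-0.00) or Kcnk12 (-0.05). Kcna1 kept a slope of -0.06 (adjusted p = 0.0203) and Kcnc1 one of -0.11 (limma adjusted p = 0.000359).

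The start regions of 2 risers (Kcnd3 and Kcnt2) and of 2 fallers (Kcna2 and Kcnc1) are shown to let the promoters of genes that moved in opposite directions be read side by side. Each line is the 250 bases before the transcript start in RefSeq (GRCr8, plus strand), 5′ to 3′, with GC boxes (GGGCGG or its reverse complement CCGCCC) in capitals.
Kcnd3 at chr2:195626066-195626315: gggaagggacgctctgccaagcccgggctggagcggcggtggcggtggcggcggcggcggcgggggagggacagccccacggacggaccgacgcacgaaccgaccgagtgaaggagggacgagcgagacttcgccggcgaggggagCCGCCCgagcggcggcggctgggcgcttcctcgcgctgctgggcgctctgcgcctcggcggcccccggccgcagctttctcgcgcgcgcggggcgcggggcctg
Kcnt2 at chr13:54215057-54215306: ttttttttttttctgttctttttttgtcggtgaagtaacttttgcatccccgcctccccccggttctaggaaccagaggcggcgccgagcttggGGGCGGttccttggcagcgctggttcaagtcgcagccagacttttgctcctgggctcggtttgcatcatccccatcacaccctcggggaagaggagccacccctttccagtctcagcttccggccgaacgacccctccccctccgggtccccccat
Kcna2 at chr2:197393280-197393529: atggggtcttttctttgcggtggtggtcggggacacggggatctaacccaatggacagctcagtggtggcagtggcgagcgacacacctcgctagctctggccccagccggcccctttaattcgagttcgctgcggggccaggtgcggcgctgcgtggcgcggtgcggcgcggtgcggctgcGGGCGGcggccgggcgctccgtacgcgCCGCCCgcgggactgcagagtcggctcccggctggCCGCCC
Kcnc1 at chr1:106038997-106039246: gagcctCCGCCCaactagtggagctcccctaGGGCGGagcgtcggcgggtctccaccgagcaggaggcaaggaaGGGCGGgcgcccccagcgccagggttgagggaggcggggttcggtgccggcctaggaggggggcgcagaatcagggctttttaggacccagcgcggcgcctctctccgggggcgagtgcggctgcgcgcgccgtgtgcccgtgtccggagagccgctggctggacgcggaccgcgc
GC boxes numbered 1 in Kcnd3 and 1 in Kcnt2, against 3 in Kcna2 and 3 in Kcnc1, with a G and C content of 79.6%, 59.2%, 72.4% and 74.4% in that order. These 4 genes were picked, so the counts say nothing of risers and fallers in general. In the deposited table the positions of Kcnd3 (195626316) and Kcnc1 (106039247) directly follow these windows. Those of Kcna2 (197392746) and Kcnt2 (54214831) lie before theirs, so these 2 windows are not upstream of the position in that table. A promoter entry was found for 47 of the 72 genes. In the same window GGGCGG (both strands) was present in 48.9% of these 47 and in 32.4% of all 27457 promoters, TATAAA in 0 of the 47 and in 13.1% of all, and AAAGGTCA, the NBRE motif that the dopamine neuron factor encoded by Nr4a2 can bind, in 2 of the 47 and in 1.11% of all. None of the 4 regions shown holds TATAAA or AAAGGTCA. Matches of TATAAA and AAAGGTCA can share their AAA, and a match of letters is a description only.

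**Figure D3:**
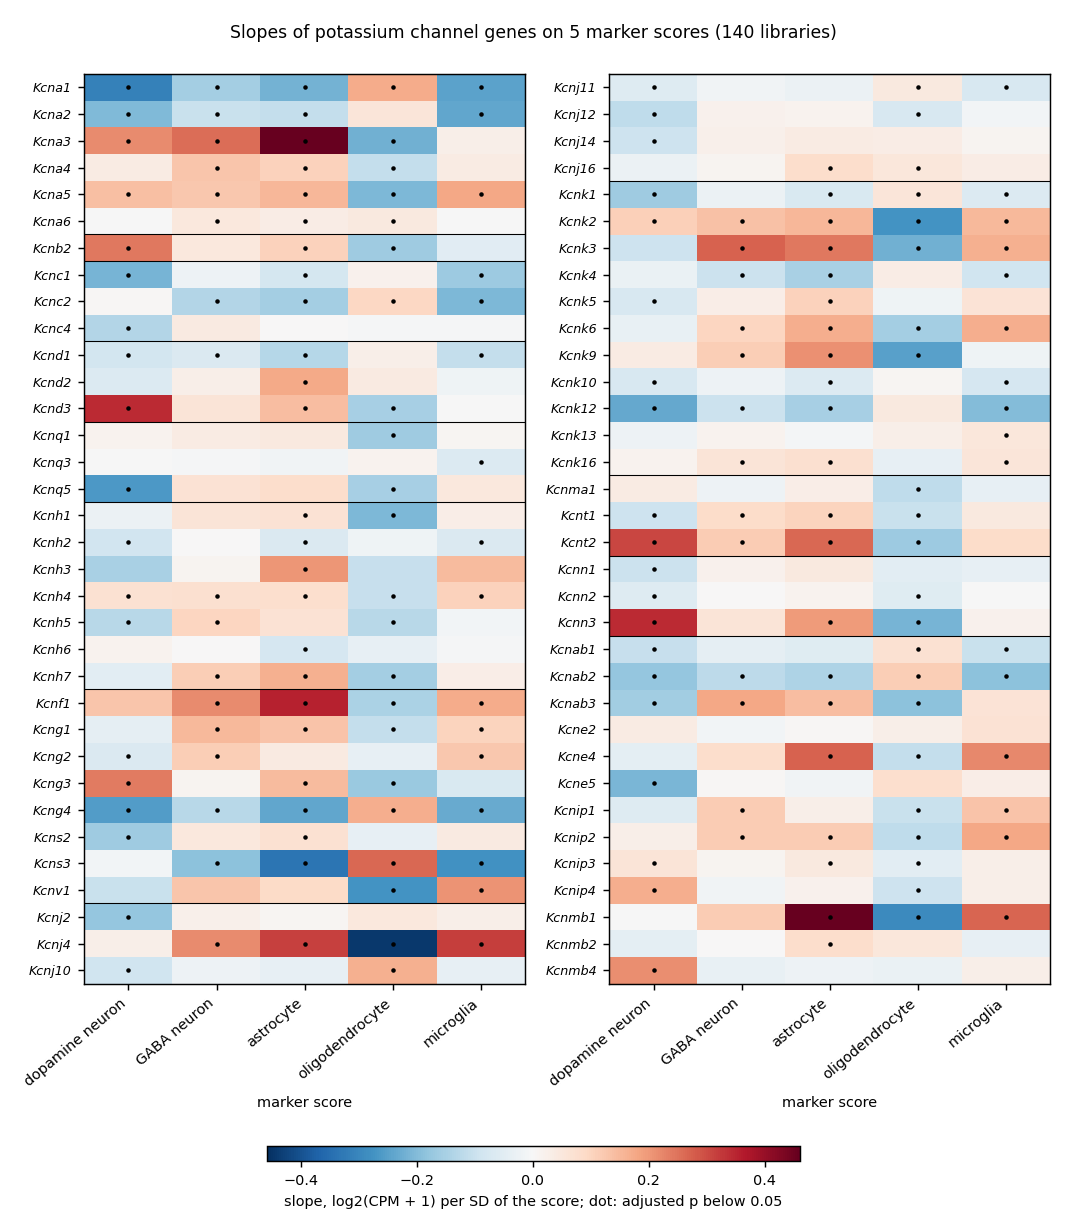
Slope of 68 of the 72 channel genes (rows, grouped by family) on 5 marker scores (columns) over 140 libraries; red is a rise, blue a fall and a dot an adjusted p below 0.05. Kcna1 and Kcng4 are blue for dopamine, GABA neuron, astrocyte and microglia scores and red for the oligodendrocyte score, while Kcnd3, Kcnn3 and Kcnt2 are red in the dopamine column.

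With the score of 6 GABA neuron genes, 23 channel genes rose and 10 fell, where 32.4% of all genes rose and 10.6% fell, so the share of risers among the 72 (31.9%) was near that of all genes. Kcnk3, which encodes an acid-sensitive two-pore channel, had 1.76 to 25.6 CPM (median 9.29) and the largest slope, 0.27 (SE 0.049, limma adjusted p = 1.11e-05), with 0.26 in hexadecimal and 0.27 in decimal libraries. It was followed by Kcna3 (0.26, adjusted p = 0.00432), Kcnj4 (0.22, adjusted p = 0.0123), Kcnf1 (0.22, adjusted p = 0.0019), Kcnab3 (0.18, adjusted p = 0.000119), Kcng1 (0.15, adjusted p = 7.98e-05), Kcnk2 (0.13) and Kcna4 (0.13, adjusted p = 1.04e-05). Kcnab3, a beta subunit gene of Kv1 channels, thus rose with this score and fell with the dopamine score. The falls included Kcns3 (-0.19, adjusted p = 0.00249), and none of the 10 passed in the same direction with the large projection neuron score as a covariate. Scaling by median of ratios gave 7 rises and 2 falls, and 1 of these falls was among the 10. Kcnk3, Kcnab3, Kcng1 and Kcna4 still passed with that scaling (slopes 0.20, 0.13, 0.12 and 0.09), and Kcna3, Kcnj4, Kcnf1 and Kcnk2 did not.

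With the score of 10 astrocyte genes, 34 channel genes rose and 15 fell, where 50.5% of all genes rose and 21% fell. Under median of ratios scaling the split was 18 and 18. Kcnj10 and Kcnj16, the inward rectifiers known from astrocytes, were not among the steep ones. Kcnj16 had 87.05 to 199.6 CPM (median 117.8) and rose by 0.08 (SE 0.016, limma adjusted p = 7.72e-06). Kcnj10 had 228 to 588 CPM (median 351) and a slope of -0.04 that did not pass (adjusted p = 0.103). The two-pore gene Kcnk1, also known from astrocytes, fell by 0.07 (adjusted p = 0.00322). The steepest were Kcnmb1 (0.46, SE 0.050, adjusted p = 1.07e-14), Kcna3 (0.46, SE 0.066, adjusted p = 8.43e-10), Kcnf1 (0.36, SE 0.052, adjusted p = 1.35e-09), Kcnj4 (0.32) and Kcne4, an auxiliary subunit gene (0.27, SE 0.029, adjusted p = 5.86e-15). Of these, Kcna3 and Kcnf1 had slopes that differed by identifier format: Kcna3 had a slope of 0.66 in hexadecimal and 0.05 in decimal libraries (limma interaction adjusted p = 0.00297), and the slopes of Kcnf1 differed by 0.33 (adjusted p = 0.0242). The astrocyte score itself followed the respiratory chain score with r = -0.57 in hexadecimal and -0.08 in decimal libraries (-0.46 and rho -0.47 over all Th libraries, permutation adjusted p = 3.5e-05; -0.47 without 2).

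Kcnmb1 and Kcne4 had their largest slopes of the 8 scores on that of mural cells (Rgs5, Pdgfrb, Acta2, Myh11, Tagln and Cspg4), which was added after the data were seen. There Kcnmb1 rose by 0.68 (SE 0.028, limma adjusted p = 1.49e-49), with 0.77 in hexadecimal and 0.48 in decimal libraries, and Kcne4 by 0.33 (SE 0.025, adjusted p = 2.14e-25). Of the 72 genes 40 rose and 15 fell with this score, where 54.3% and 23.6% of all genes did.

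With the score of 10 oligodendrocyte genes, 12 channel genes rose and 35 fell, where 14.8% of all genes rose and 32.5% fell. Median of ratios scaling gave 22 rises and 33 falls. Kcnj10 rose by 0.16 (SE 0.018, limma adjusted p = 2.65e-13), with 0.17 in hexadecimal and 0.15 in decimal libraries and 0.18 with all 5 scores in 1 fit. Its partner Kcnj16 rose by 0.05 (adjusted p = 0.0102). Rises were also found for genes that rose with the large projection neuron score: Kcns3 (0.26, adjusted p = 3.84e-06), Kcna1 (0.17), Kcng4 (0.17), Kcnab2 (0.11), Kcnc2 (0.10) and Kcnab1 (0.07). With that score as a covariate 4 of the 12 still passed. The falls were led by Kcnj4 (-0.44, SE 0.066, adjusted p = 1.5e-08), Kcnmb1 (-0.29), Kcnk2 (-0.28, SE 0.034, adjusted p = 2.87e-11), Kcnv1 (-0.27), Kcnk9 (-0.25), Kcnk3 (-0.22), Kcna3 (-0.22) and Kcnn3 (-0.22). For Kcnj4, an inward rectifier of forebrain neurons, 0.130 to 20 CPM (median 3.65) were measured.

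With the score of 10 microglia genes, 16 channel genes rose and 17 fell, where 37.2% of all genes rose and 10.1% fell. Median of ratios scaling gave 5 rises and 29 falls. Kcnk13, the two-pore channel gene known from microglia, had 1.53 to 4.83 CPM (median 2.95) and a slope of 0.05 (SE 0.022, limma adjusted p = 0.0339). Kcna3, also known from activated microglia, had a slope of 0.03 that did not pass (adjusted p = 0.81). Kcnj4 (0.32), Kcnmb1 (0.27), Kcne4 (0.22, SE 0.032, adjusted p = 5.62e-09), Kcnv1 (0.21), Kcnip2 (0.18, SE 0.025, adjusted p = 2.23e-09), Kcna5 (0.18), Kcnf1 (0.17) and Kcnk6 (0.17, adjusted p = 2.81e-07) rose most. The falls included genes that rose with the large projection neuron score, from Kcns3 (-0.28), Kcna1 (-0.25) and Kcna2 (-0.24) to Kcnab2 (-0.19). Astrocyte and microglia scores were correlated (r = 0.59 and rho = 0.58 over the Th libraries, permutation adjusted p = 3.5e-05, 0.57 without 2; 0.60 in each format), so the same genes can lead both.

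**Figure D4:**
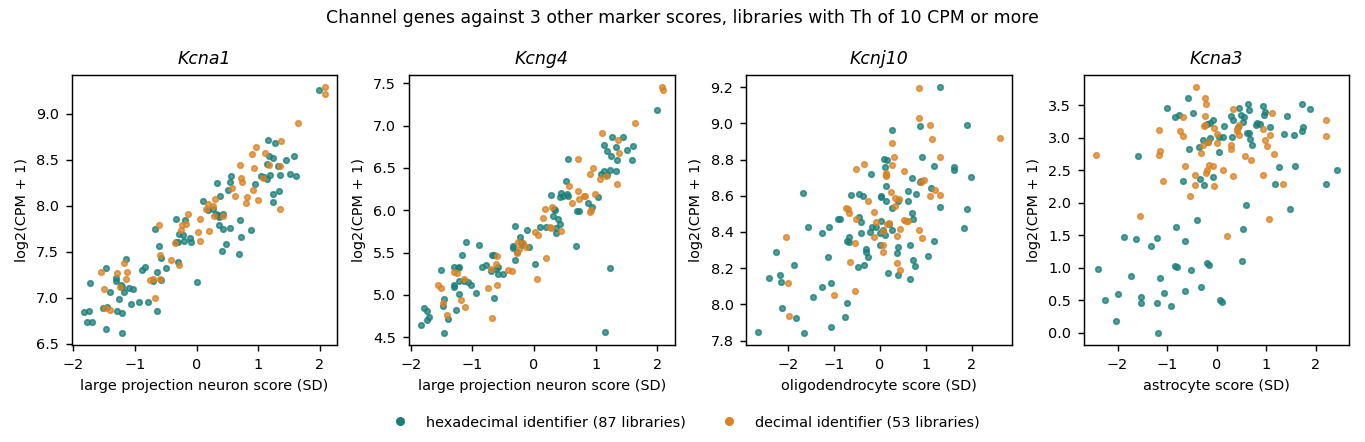
log2(CPM + 1) against a marker score, 1 point per library (87 hexadecimal in green, 53 decimal in orange), for Kcna1 and Kcng4 on the large projection neuron score, Kcnj10 on the oligodendrocyte score and Kcna3 on the astrocyte score. Kcna1 and Kcng4 lie along 1 line for both formats except for 2 low Kcng4 points, while Kcna3 has a separate low set of mostly green points.

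The score of 18 nuclear-encoded respiratory chain genes, added after the data were seen, is given because libraries differ along it and channel genes move with it. Of the 72 genes 11 rose and 36 fell with it, where 27.6% and 50.8% of all genes did. Kcna3 fell by 0.76 (SE 0.044, limma adjusted p = 1.06e-34), with -0.96 in hexadecimal and -0.26 in decimal libraries. Kcnf1 (-0.48), Kcnk9 (-0.45), Kcnt2 (-0.43), Kcnn3 (-0.39), Kcnk3 (-0.38) and Kcnd3 (-0.31) also fell. With this score as a covariate, 8 of the 14 dopamine risers and 27 of the 28 fallers still passed. Kcnd3 then had a slope of 0.27, Kcnn3 of 0.25 and Kcnt2 of 0.19 on the dopamine score.

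Kcne2 passed on none of the 5 scores, and Kcna1, Kcna5, Kcnab2, Kcng4, Kcnh4 and Kcnk2 were among the genes that passed on all 5. Of 21 partner genes of potassium channels that could be tested, 5 rose with the dopamine score and 6 fell, where 18.4% of all genes rose and 15.1% fell. The risers were Lrrc55, which encodes a gamma subunit of large-conductance calcium-activated channels (0.29, SE 0.028, limma adjusted p = 7.46e-17), the Kv4 partner genes Dpp10 (0.16, adjusted p = 2.5e-11) and Dpp6 (0.10, adjusted p = 3.09e-06), Lgi1 (0.13) and Dlg2 (0.06). Lrrc38, a further gamma subunit gene, fell by 0.16 (SE 0.026, adjusted p = 8.53e-08), and falls of 0.04 to 0.10 were found for Adam23, Abcc8, Abcc9 and Calm2. With the other scores the counts of rises and falls were 7 and 4 (GABA neuron), 12 and 5 (astrocyte), 3 and 7 (oligodendrocyte) and 2 and 4 (microglia). The shares of all genes were 32.4% and 10.6%, 50.5% and 21%, 14.8% and 32.5%, and 37.2% and 10.1% in that order. The partner counts were not tested against these shares.

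Channel genes and their partner genes were then compared over the Th libraries in 16 fixed pairs, and 13 were correlated. Not every pair stands for subunits of 1 channel: Kcna1 and Kcnc1 belong to different Kv families. Kcna1 and Kcna2, partners in axonal Kv1 channels, had r = 0.93 (rho = 0.93, 0.92 without the 2 farthest libraries, permutation adjusted p = 1.23e-05 from the smallest p that 100000 resamples can give), with 0.91 in hexadecimal and 0.94 in decimal libraries. Kcna2 and Kcnab2 had r = 0.89 (rho = 0.89) and Kcna1 and the Kv3 gene Kcnc1 r = 0.84 (rho = 0.83). The acid-sensitive two-pore genes Kcnk3 and Kcnk9 had r = 0.77 (rho = 0.76), with 0.81 in hexadecimal and 0.54 in decimal libraries. For Kv4 channels Kcnd3 had r = 0.71 with Kcnip4 (rho = 0.68) and 0.65 with Dpp6 (rho = 0.73), and both held within each format. After the respiratory chain score was taken out, Kcnd3 and Dpp6 had r = 0.27 (rho = 0.36) and Kcnd3 and Kcnip4 r = 0.73. Before that score was taken out, each of these pairs had the same smallest permutation p over the Th libraries, and without the 2 farthest libraries r lay between 0.69 and 0.92. After it was taken out, Kcnd3 and Dpp6 had a permutation adjusted p of 0.00243 and r = 0.38 without the 2 farthest libraries.

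Weaker correlations were found for Kcnj11 and its sulfonylurea receptor gene Abcc8 (r = 0.48, rho = 0.47, 0.49 without 2) and for Kcnj10 and Kcnj16 (r = 0.47, rho = 0.38, 0.43 without 2). The value for Kcnd2 and Dpp10 (r = 0.51, rho = 0.31) was not shared by the formats, with 0.58 in hexadecimal libraries and -0.21 (permutation adjusted p = 0.161) in decimal ones. The pairs Kcnma1 and Kcnmb4 (r = -0.09, rho = -0.09, permutation adjusted p = 0.361), Kcnn2 and Kcnn3 (r = -0.04, rho = -0.00, adjusted p = 0.639) and Kcnd2 and Kcnip3 (r = -0.02, rho = -0.04, adjusted p = 0.783) did not pass. However, Kcnn2 and Kcnn3 passed under median of ratios scaling (r = -0.26, permutation adjusted p = 0.00227) and after the respiratory chain score was taken out (r = -0.22, adjusted p = 0.0126), and Kcnd2 and Kcnip3 passed in decimal libraries (r = -0.29, permutation adjusted p = 0.0416).

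**Figure D5:**
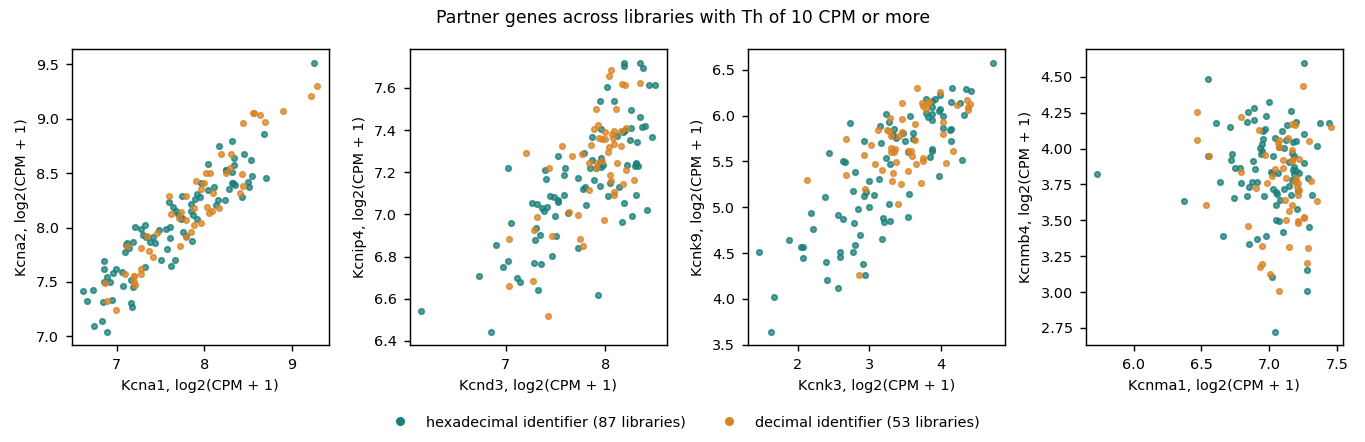
log2(CPM + 1) of 4 partner pairs, 1 point per library (87 hexadecimal in green, 53 decimal in orange). Kcna1 and Kcna2 rise together (r = 0.93), Kcnd3 and Kcnip4 rise together (r = 0.71), Kcnk3 and Kcnk9 rise together (r = 0.77), and Kcnma1 and Kcnmb4 show no slope (r = -0.09).

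Levels in the 11 libraries with little Th are described without a test, because a measured value sets these libraries apart. In 25 of the 72 channel genes every one of the 11 libraries lay above all Th libraries, and in 6 every one lay below. Without Kcnh3, which passed the level limit only through the 11 libraries, 24 of 71 lay above. Over all 15536 genes the shares were 8.87% and 10.2%. The median difference of median log2(CPM + 1), the 11 minus the Th libraries, was 0.27 over the 72 genes and -0.15 over all genes. With median of ratios scaling the median over all genes was -0.01 and the counts were 28 and 6. Only Th set the 11 libraries apart. Cortical neuron genes and myelin genes also differed in them, as given above, and the part of those cells in these levels was not tested.

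Of the 7 Kcnh genes 5 lay wholly above, where 8.87% of all genes did. Kcnh3 is among the 5, but it passed the level limit only through the 11 libraries. Kcnh3, an ELK channel gene of forebrain neurons, had 162 to 217 CPM (median 196) in the 11 libraries and 0 to 26.1 CPM (median 0.66) in the Th libraries, a difference of 6.89. Kcnh7 had 83.6 to 120.4 CPM (median 104.9) in the 11 libraries and 4.44 to 44.2 CPM (median 14.1) in the Th libraries. Kcnh1, Kcnh4 and Kcnh5 were higher by 2.13, 1.52 and 2.30 in median log2 level. Kcnh2 was lower, with 28.6 to 34.1 CPM (median 30.8) in the 11 libraries and 56.9 to 141.6 CPM (median 87.6) in the Th libraries.

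The silent subunit genes split in the same way. Kcnf1 had 97.7 to 131.5 CPM (median 118.5) in the 11 libraries and 0 to 17.1 CPM (median 4.71) in the Th libraries. Kcnv1 had 68.4 to 85.45 CPM (median 80.4) in the 11 libraries and 0.389 to 13.2 CPM (median 2.91) in the Th libraries, and Kcng1 had 90.1 to 135.2 CPM (median 112.2) in the 11 and 2.81 to 17.4 CPM (median 6.62) in the Th libraries. Kcns2 was higher by 2.42. Kcng4 had the lowest difference of all members, -3.55, with 1.61 to 4.70 CPM (median 3.38) in the 11 libraries and 22.4 to 175 CPM (median 50.3) in the Th libraries.

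Inward rectifiers also went both ways without overlap. Kcnj4 had 111.1 to 129.7 CPM (median 123.6) in the 11 libraries and 0.130 to 20 CPM (median 3.65) in the Th libraries. The glial pair was lower: Kcnj16 had 7.35 to 16.8 CPM (median 11.2) in the 11 libraries and 87.05 to 199.6 CPM (median 117.8) in the Th libraries, and Kcnj10 had 110.8 to 169.6 CPM (median 126.2) in the 11 and 228 to 588 CPM (median 351) in the Th libraries. Summed over the 10 astrocyte genes the level was 4082 to 5365 CPM in the 11 libraries and 3016 to 10175 CPM in the Th libraries. These ranges overlap, while those of Kcnj10 and Kcnj16 do not. Genes of the list went different ways: Slc1a3 had 510 to 661 CPM in the 11 and 183 to 501 CPM in the Th libraries. Median Gfap was 256 CPM against 1204 CPM. Kcnj10 rose with the oligodendrocyte score among the Th libraries, and the 10 myelin genes summed to 1621 to 5489 CPM against 19716 to 49676 CPM. The part of either cell type in these levels was not tested.

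Of the M-current genes Kcnq5 had 153 to 189 CPM (median 173) in the 11 libraries and 7.68 to 72.6 CPM (median 14.9) in the Th libraries, and Kcnq3 was higher by 0.80, both without overlap. Kcnmb4 had 94.1 to 114.5 CPM (median 104.5) in the 11 libraries and 5.6 to 23.2 CPM (median 13.3) in the Th libraries, although it rose with the dopamine score among the Th libraries. Kcnt2 was likewise higher, with 30.5 to 43.3 CPM in the 11 libraries and 1.69 to 19.4 CPM in the Th libraries. The 2 steepest dopamine risers were lower: Kcnd3 had 79.1 to 102.5 CPM (median 91.2) in the 11 libraries and 69.8 to 361.8 CPM (median 242) in the Th libraries, and Kcnn3 had 4.47 to 8.70 CPM (median 5.90) in the 11 and 6.05 to 33.4 CPM (median 17.6) in the Th libraries, both with overlap. Among decimal libraries alone the low-Th libraries lay wholly below the others for Kcnd3. Kcnab3 (-2.27) and Kcna6 (-0.95) lay wholly below, and Kcnip1 (-0.997) overlapped. All 3 Kv4 and all 3 small-conductance genes overlapped over all libraries, while among decimal libraries Kcnn1 and Kcnn2 lay wholly above.

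Genes that lie near each other did not always share a pattern, and neighbours were not tested as a set. In the deposited table Kcna5 (161044311), Kcna1 (161160051) and Kcna6 (161262352) lie beside each other on chromosome 4 (genome build not stated), and their dopamine slopes were 0.14, -0.31 and -0.00. Kcna3 (197320324) and Kcna2 (197392746) lie on chromosome 2, with slopes of 0.22 and -0.20. The Kcna3 slope was -0.02 with the respiratory chain score as a covariate, and it was negative with Th alone. Other neighbours moved alike: Kcnj14 (105437258), Kcnj11 (105731167) and Kcnc1 (106039247) on chromosome 1 had slopes of -0.10, -0.06 and -0.21. Kcnj16 (96489329) and Kcnj2 (96560225) lie on chromosome 10, and in the 11 libraries Kcnj16 was lower by a difference of -3.28 while Kcnj2 differed by 0.24 with overlapping ranges. No source used here states the strandedness, so reads from antisense transcripts cannot be told apart from those of the genes.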

How the data were processed

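PolyA RNA of all libraries with values was quantified by the authors with kallisto 0.48, per the submitters' processing notes, which returns estimated counts by pseudoalignment. The authors deposited 1 table of log2 values. These were read as log2(estimated count + 1), since 0 stays 0 and, after back-transformation, 55.7% of values under 100 were whole within 0.001. No label states the unit, and the genome build is not given. Because the deposited values are on a log scale and are not raw counts, no count model was used. They were back-transformed, divided by the library total to CPM and tested as log2(CPM + 1). Genes with a mean of at least 1 on this scale over all libraries (15536 of 34551 with any count) were fitted with limma 3.58.1 in R 4.3.3 (trend, Benjamini-Hochberg over all 15536 genes), 140 libraries, identifier format as covariate; the fit recovered the known slopes of simulated data. At the smallest total 1 CPM is 15.2 estimated counts. Correlations had two-sided permutation p from 100000 resamples, adjusted over 16 pairs of genes or 28 pairs of scores. A limit of 10 CPM of Th set the 11 libraries apart. Named are, per score, 8 passing genes at each end of the slopes, for the 11 libraries the 8 largest and 8 most negative differences, the 5 widest and narrowest spreads, genes at the level limit, and members of the fixed pairs and lists; others were chosen after their values were seen. Some genes count in the totals but are not reported here by name. The genes, lists and tests were chosen with earlier results of these data known. No column of the table was left unused (0). Promoter sequences are from RefSeq (GRCr8). Alternatives were another pseudocount, no filter, median of ratios scaling, no format covariate, each format alone, covariates, all scores together, single markers and left-out libraries.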

Additional observations from a re-analysis of the deposited data

Results flagged for a closer look

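For 8 channel genes the slope on the astrocyte score differed between the identifier formats (limma, interaction of score and format over 15536 genes). The difference, hexadecimal minus decimal, is given for 7 of them and was 0.56 for Kcna3 (adjusted p = 0.00297), 0.33 for Kcnf1 (adjusted p = 0.0242), 0.32 for Kcnt2 (adjusted p = 0.0109), 0.30 for Kcnk9 (adjusted p = 0.0161), 0.28 for Kcnn3 (adjusted p = 0.0135), 0.23 for Kcnd3 (adjusted p = 0.0179) and 0.13 for Kcnip4 (adjusted p = 0.0408). These 7 were steeper in hexadecimal libraries. Such a difference was found for 11.1% of the 72 channel genes, against 26.8% of all genes tested on this score. The relation of the astrocyte and respiratory chain scores, which also differs between the formats, is given in the report, and its part in these differences was not tested.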

How the results depend on the processing

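For the dopamine score the counts of 14 rises and 28 falls became 8 and 16 in decimal libraries, 8 rises with the respiratory chain score as a covariate or with Th alone, and 9 rises with the large projection neuron score as a covariate. For the GABA neuron score (23 and 10) the counts were 7 and 2 under median of ratios scaling, 12 and 6 in hexadecimal and 12 and 2 in decimal libraries, 7 and 6 with the respiratory chain score, 14 and 2 with the large projection neuron score, 6 falls with all 5 scores and 16 falls with Slc32a1 alone. For the astrocyte score (34 and 15) they were 18 rises under median of ratios scaling, 6 and 6 in decimal libraries, 17 rises with the respiratory chain score and 6 falls with the large projection neuron score. For the oligodendrocyte score (12 and 35) they were 22 rises under median of ratios scaling, 3 and 22 in decimal libraries and 4 rises with the large projection neuron score. For the microglia score (16 and 17) they were 5 and 29 under median of ratios scaling, 8 rises in hexadecimal libraries, 29 falls with all 5 scores and 34 rises with Cx3cr1 alone. In decimal libraries the mural counts (40 and 15) were 24 and 5 and the respiratory chain counts (11 and 36) 2 and 20; median of ratios scaling gave 21 rises with the respiratory chain score. The cause of these changes was not tested. Fits within a format held fewer libraries, and the part of that smaller number in the lower counts was also not tested.

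Some slopes changed sign. On the dopamine score Kcna3 was at -0.021 with the respiratory chain score and -0.21 with Th alone. With all 5 scores in 1 fit the astrocyte slopes were -0.028 for Kcnj4, 0.018 for Kcna1, 0.010 for Kcnc2, 0.0018 for Kcnk12 and 0.041 for Kcnab2, and the microglia slope of Kcnf1 was -0.056. With the large projection neuron score as a covariate, an alternative chosen after seeing the data, the dopamine slope was 0.036 for Kcng4, the GABA neuron slopes 0.040 for Kcna1, 0.089 for Kcng4, 0.011 for Kcnab2 and 0.038 for Kcna2, the astrocyte slopes 0.070 for Kcng4, 0.073 for Kcna1, 0.067 for Kcnk12 and 0.053 for Kcnab2, and the oligodendrocyte slope -0.0041 for Kcng4. The pair Kcnd2 and Dpp10 had r = -0.21 in decimal libraries and 0.25 after the respiratory chain score. All 16 named level differences moved by less than 1 SD under the 4 alternatives tried. No paired analysis was possible because the libraries form 1 group.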

Other observations

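Kcne2, an auxiliary subunit gene that is abundant in the choroid plexus, was 0.50 to 6.42 CPM in 140 libraries with Th and 35.8 CPM in 1 further library. In that library all 6 listed choroid plexus genes were also the highest of all libraries with Th, with Ttr at 11987 CPM (next highest 88.3), Slc4a5 at 143.2 CPM (next 11.5), Kl at 195 CPM (next 3.96), Folr1 at 60.4 CPM (next 2.04), Clic6 at 58.8 CPM (next 4.72) and Aqp1 at 32.6 CPM (next 6.07).

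Kcng4 followed the large projection neuron score closely except in 2 hexadecimal libraries, picked out after their values were seen. With scores of 1.16 and 1.23 they had 22.6 and 38.8 CPM of Kcng4, against at least 70.2 CPM in the 26 other libraries with a score above 1. Kcng4 was not alone in this. Kcns3 was low in the same 2 libraries, with 6.14 and 11.3 CPM, against at least 23.1 CPM in the 26 others. In the library with a score of 1.16, Kcnd3 (69.8 CPM) and Kcnc2 (83.5 CPM) also had their lowest level relative to this score.

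Of the libraries with Th, 6 had more than 100 CPM of Slc17a7, and they held the 3 highest values of Kcnh3, Kcnf1, Kcnv1, Kcnj4 and Kcnq5. For Kcng1, Kcnmb4 and Kcnh7 they held 2 of the 3 highest. Not all 6 were high. Their lowest values of Kcnh3 (0.058 CPM), Kcnf1 (2.10 CPM) and Kcnj4 (2.22 CPM) lay below the medians of the Th libraries (0.66, 4.71 and 3.65 CPM). Those of Kcnv1 (6.07 CPM) and Kcnq5 (24.2 CPM) lay above the medians (2.91 and 14.9 CPM). Kcnh3 reached 26.1 CPM in these 6 libraries, against at most 7.85 CPM in the others, and Kcnq5 reached 72.6 CPM, against at most 33.3 CPM. The slopes were also fitted without these 6 libraries.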
